A study of Mus musculus with 2 samples.

Results

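The colony-stimulating factors are secreted proteins that control the survival, growth and activity of myeloid cells. The 4 ligands described here are Csf1 (M-CSF), Il34 (interleukin-34), Csf2 (GM-CSF) and Csf3 (G-CSF), and the 4 receptor genes are Csf1r, Csf2ra, Csf2rb and Csf3r. The members were the genes with these symbols in both count matrices, 8 of 27998 listed genes, and all 8 had UMIs in both libraries. M-CSF and interleukin-34 share the receptor Csf1r, which macrophages and monocytes need. GM-CSF binds Csf2ra together with Csf2rb, the β chain that interleukin-3 and interleukin-5 also use, and acts on macrophages, dendritic cells and granulocytes. G-CSF binds Csf3r and drives the production and release of neutrophils. In skin, interleukin-34 of the epidermis is known for maintaining Langerhans cells.

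Single-cell RNA was measured in 2 libraries of healed dorsal wound skin of wild-type C57BL/6J male mice aged 6 to 8 weeks. Both came from large round wounds 1.8 cm across. WT_LW received PBS and TLR9agonist_LW received 4 μg of the TLR9 agonist ODN2395 on days 0, 3 and 6, and the tissue of the wound centre was taken 2 days after the scab had come off. TLR9 is a receptor for unmethylated CpG DNA. Each library pooled mice (6 per group in the results text of the study, 5 samples per group in its methods), and 1 figure legend names a control oligonucleotide where the labels name PBS. The tissue was digested with enzymes and dead cells were removed, so cell types can be lost unequally.

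The WT_LW library held 99374045 UMIs in 12800 cells and TLR9agonist_LW 132339022 UMIs in 13751 cells, and 47 barcodes occurred in both. After filters and doublet removal, 10395 and 11811 cells were used, with a median of 5519 and 6080 UMIs per cell. With 1 library per group there is no estimate of the spread between mice or libraries and no test. Values are given as CPM, the UMIs of the gene in each 1000000 UMIs of that cell type in the library, and the 95% intervals in brackets cover counting error only. Differences between the libraries are therefore differences between these libraries, and cannot be told apart from differences between pools.

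Cell types were gated by marker genes that include none of the 8 members, and 22.2% and 24.9% of cells stayed ungated. Fibroblasts numbered 833 in WT_LW and 2288 in TLR9agonist_LW, T cells 2387 and 1766, macrophages 953 and 766, endothelial cells 624 and 395, pericytes 629 and 467, keratinocytes 531 and 1375, mast cells 197 and 439, and neutrophils 47 and 216. Among the gating markers themselves, Pecam1 was in 97.4% and 98.0% of endothelial cells, Rgs5 in 99.8% and 99.4% of pericytes and C1qa in 91.1% and 92.8% of macrophages. Such shares follow in part from the gating and are not a check of it. The neutrophil gate is less certain. S100a8, also a gating marker, was in 97.9% and 99.5% of its cells. Ly6g, which was not a gating marker, had 0 and 14 UMIs, and the keratin Krt14 was found in 36.2% and 85.2% of the cells. No cluster of cells took its name from the monocyte, type 1 dendritic or Langerhans cell gates in either library, so values for these rest on marker gates alone.

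Upstream sequence of 4 members was in the RefSeq table of GRCm38.p6 promoters, and 3 are shown because a short motif tied to their cell types or to inflammation lies in them. Each line gives the 250 bases before the annotated start, 5′ to 3′ on the gene's strand. Capitals mark a match to the κB consensus, bound by NF-κB, in Csf1 and to GAGGAA, the core bound by the myeloid factor PU.1, in Csf2ra and Csf3r. Both strands were searched.
Csf1: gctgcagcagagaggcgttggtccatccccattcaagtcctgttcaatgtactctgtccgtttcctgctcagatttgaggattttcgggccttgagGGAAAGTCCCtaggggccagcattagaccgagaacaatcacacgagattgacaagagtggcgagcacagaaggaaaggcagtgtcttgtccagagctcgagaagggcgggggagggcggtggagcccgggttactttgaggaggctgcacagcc
Csf2ra: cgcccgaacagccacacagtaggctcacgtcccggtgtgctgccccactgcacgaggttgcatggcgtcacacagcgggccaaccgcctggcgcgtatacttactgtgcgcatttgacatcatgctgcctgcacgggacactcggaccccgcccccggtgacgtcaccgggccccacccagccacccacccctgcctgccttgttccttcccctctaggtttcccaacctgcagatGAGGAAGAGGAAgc
Csf3r: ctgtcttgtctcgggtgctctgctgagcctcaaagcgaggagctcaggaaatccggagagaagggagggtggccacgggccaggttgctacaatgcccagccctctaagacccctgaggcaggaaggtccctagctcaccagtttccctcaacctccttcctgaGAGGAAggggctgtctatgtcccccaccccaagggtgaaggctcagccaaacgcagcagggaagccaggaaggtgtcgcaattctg
The Csf1 window is chr3:107760470-107760719 (minus strand), and its κB match, read on the opposite strand, begins 154 bases before the start. The Csf2ra window is chr19:61228419-61228668 (minus strand) with matches 14 and 8 bases before the start, and the Csf3r window is chr4:126024409-126024658 (plus strand) with a match 86 bases before it. The κB consensus occurred in 0.98% of the 32851 windows in the table and GAGGAA in 23.3%. The Csf2 window held neither. A match is a description of the letters and not evidence of binding.

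Over all cells, Csf3 and Csf2 had the largest fold differences of the 8 members. Csf3 stood at 3.88 CPM in WT_LW and 54.6 in TLR9agonist_LW, a 14.1-fold difference [12.6–15.8], and Csf2 at 9.96 and 42.1, a 4.23-fold difference [3.93–4.55]. Csf1 was 44.3 and 68.2 CPM and Il34 19.4 and 10.9. Csf1r was 105.1 and 37.0 and Csf2ra 64.4 and 25.2, whereas Csf2rb was 132.0 and 107.2. These totals mix the level in each cell type with the numbers of cells captured, so the levels within cell types follow.

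**Figure D1:**
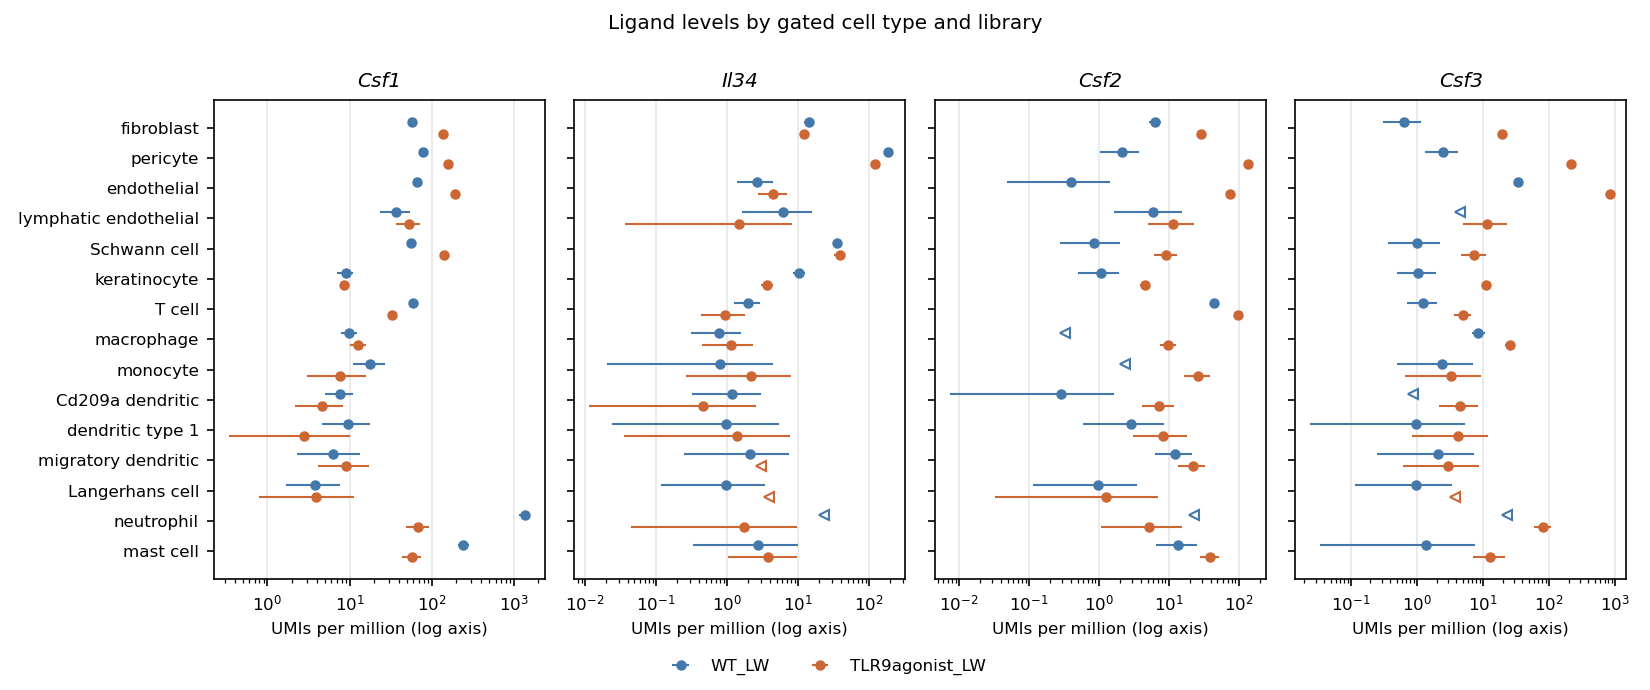
CPM (log axis) of Csf1, Il34, Csf2 and Csf3 in 15 gated cell types, with 1 point per library and exact Poisson 95% intervals. Open triangles mark the floor of 3 UMIs where none was found. Csf3 was highest in endothelial cells of TLR9agonist_LW (860.1), and Il34 was highest in pericytes of both libraries.

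Csf3, the neutrophil growth factor, was carried mainly by endothelial cells. It stood at 34.6 CPM [29.6–40.2] in WT_LW and 860.1 [832.3–888.5] in TLR9agonist_LW, from 170 and 3623 UMIs, a 24.9-fold difference [21.3–29.2]. Endothelial cells held 51.2% of all Csf3 UMIs in WT_LW and 59.7% in TLR9agonist_LW. Cells with at least 1500 UMIs were thinned to that depth, and shallower cells were left out of all thinned shares. Csf3 was then found in 3.03% [1.81–4.75] and 33.8% [29.1–38.7] of endothelial cells. It was found in 0.170% and 0.681% of T cells, taken as cells that should lack it. Median depths before thinning were 6352 and 9001 UMIs in endothelial cells and 4410 and 4726 in T cells. The higher level therefore came with more positive cells as well as with more UMIs per positive cell. Cells with at least 10 Csf3 UMIs numbered 4 of 624 in WT_LW and 89 of 395 in TLR9agonist_LW, and held 41.2% and 90.9% of the endothelial Csf3 UMIs.

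**Figure D2:**
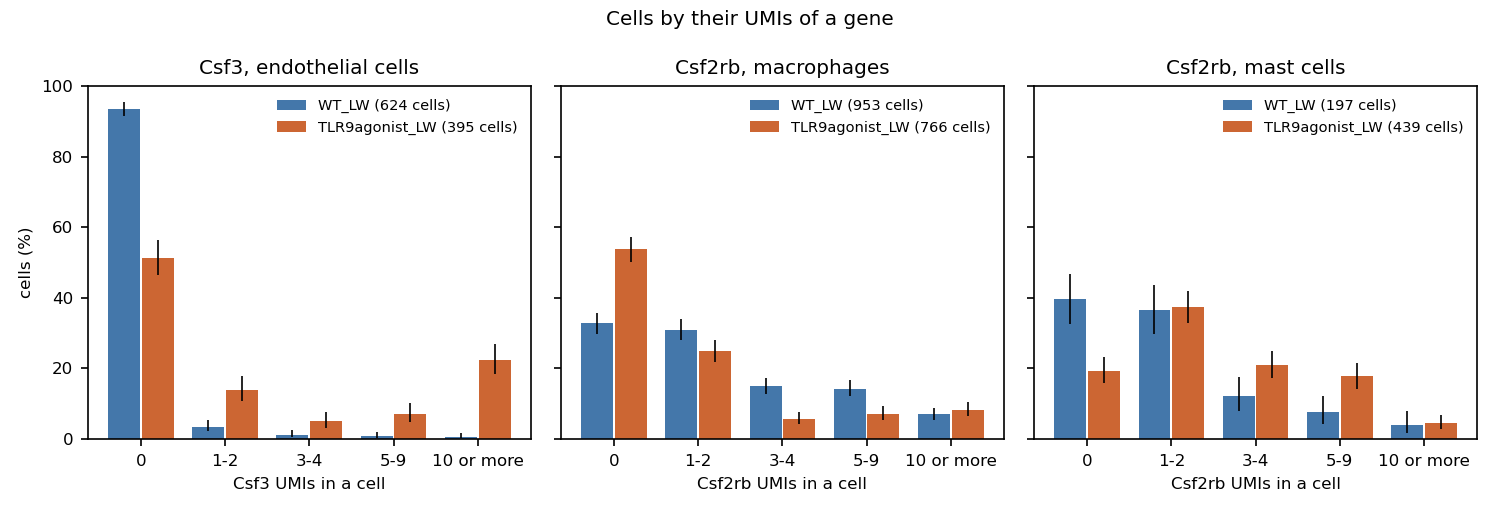
Percent of cells (vertical axis) by UMIs per cell (horizontal axis) for Csf3 in endothelial cells and Csf2rb in macrophages and mast cells, with Clopper-Pearson 95% intervals. In TLR9agonist_LW, 22.5% of endothelial cells held at least 10 Csf3 UMIs, and 53.8% of macrophages held no Csf2rb UMI. Cells were not thinned to a common depth.

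The Csf3-bearing endothelial cells were largely those with venular genes. Selp (P-selectin) and Ackr1 are known from venules, and cells with a UMI of either made up 44.7% of endothelial cells in WT_LW and 67.9% in TLR9agonist_LW. Their Csf3 level was 69.0 CPM [58.7–80.6] in WT_LW and 1201 [1161–1242] in TLR9agonist_LW. In the cells with neither gene it was 3.85 [1.85–7.08] and 142.9 [123.5–164.5]. Csf3 thus differed between the libraries within both kinds of cell, with no overlap of intervals. The median depth was 6899 and 5484 UMIs for cells with and without these genes in WT_LW, and 8979 and 9001 in TLR9agonist_LW.

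Endothelial cells with at least 3 Csf3 UMIs were compared with the rest of the same library, for genes picked after their values were seen. In TLR9agonist_LW, the 137 such cells held Icam1, a leukocyte adhesion molecule, at 1747 CPM against 689.8 in the other 258, and the neutrophil-attracting chemokine Cxcl1 at 6990 against 2323. Il6 was at 1274 against 569.0 and Vcam1 at 1149 against 598.1. The endothelial genes Pecam1 (1111 against 1194) and Cdh5 (1156 against 1181) differed little, and the leukocyte gene Ptprc stood at 13.5 against 10.4. The 137 cells were deeper, with a median of 10774 UMIs against 7916.5. The 18 such cells of WT_LW were also higher in Icam1 (929.6 against 220.8), Cxcl1 (401.4 against 201.2), Il6 (290.5 against 52.5) and Vcam1 (538.7 against 135.4). Their Pecam1 was 1632 against 1588, while their Cdh5 was lower, at 834.5 against 1203.

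Endothelial Csf1 and Csf2 were also higher in TLR9agonist_LW. Csf1 was 66.1 CPM in WT_LW and 191.6 in TLR9agonist_LW, a 2.90-fold difference [2.55–3.31]. Csf2 was nearly absent from WT_LW endothelial cells, with 2 UMIs (0.407 CPM), against 316 UMIs (75.0 CPM) in 40 cells of TLR9agonist_LW, and the log2 ratio was 7.53 [5.66–10.58]. It was 6.40 with predicted doublets kept and 6.55 with every cell weighted equally. Of those 40 cells, 30 (75.0%) also held Csf3, against 45.6% of the cells without Csf2. These shares were not thinned. The 24 cells with at least 3 Csf2 UMIs were deeper, with a median of 15237 UMIs against 8722. Of the 6 members with at least 50 UMIs in this gate, 3 were at least 2-fold higher in TLR9agonist_LW (Csf1, Csf2, Csf3), where 3.75% of all measured genes were, and 2 at least 2-fold lower (Csf1r, Csf2ra), where 16.1% were. Both lower members were near the levels of T cells. Csf1r stood at 8.75 and 3.09 CPM in endothelial cells and at 8.36 and 3.07 in T cells. Csf2ra stood at 9.15 and 4.04 in endothelial cells and at 8.44 and 4.45 in T cells. The part of RNA from other cells in these values was not tested. The median gene of the endothelial gate had a log2 ratio of −0.36.

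**Figure D3:**
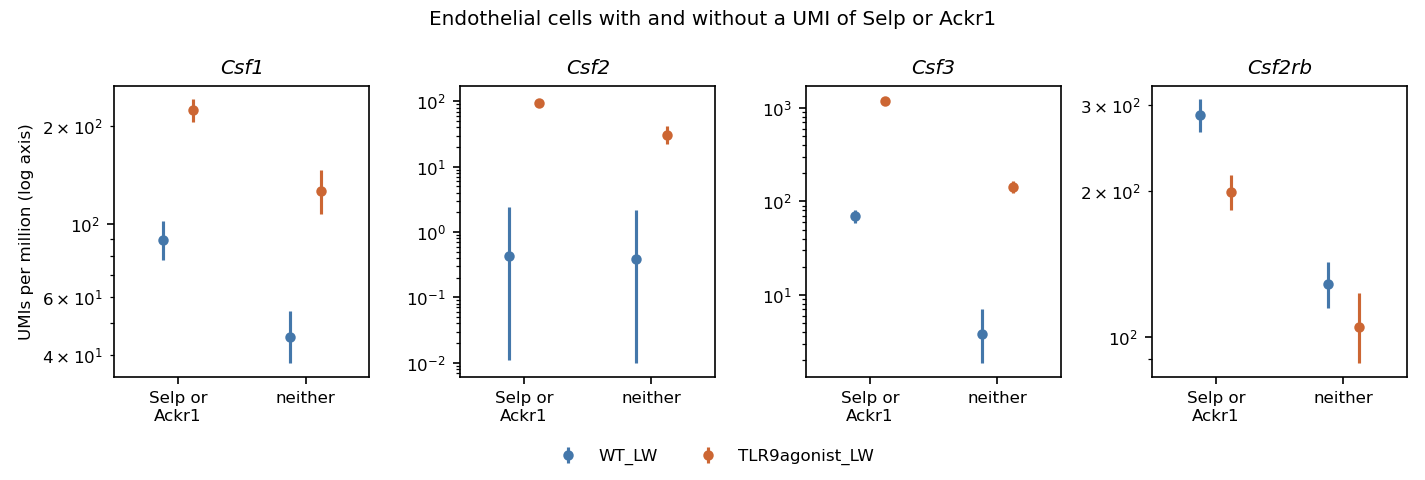
CPM (log axes with different ranges) of Csf1, Csf2, Csf3 and Csf2rb in endothelial cells with a Selp or Ackr1 UMI and in those with neither, per library, with exact Poisson 95% intervals. Csf3 was 1201 and 142.9 CPM in the 2 kinds of cell of TLR9agonist_LW.

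Pericytes, the contractile cells around small vessels, came second for Csf3 in TLR9agonist_LW. Their level was 2.51 CPM (13 UMIs) in WT_LW and 218.9 (856 UMIs) in TLR9agonist_LW, an 87.3-fold difference [50.8–164.7] from a low base. Thinned, 0.663% and 9.01% of pericytes held Csf3. Without the highest cell of each library the log2 ratio was 7.21 in place of 6.45. The 45 pericytes with at least 3 Csf3 UMIs in TLR9agonist_LW held Ptgs2, a prostaglandin synthase, at 890.4 CPM against 68.8 in the other 422, and the cytokine Lif at 473.9 against 86.8. Their Rgs5 was 5406 against 8321, and Pecam1 was near 0 in both (13.2 and 6.07). Of 6 members measured in pericytes, 3 were at least 2-fold higher (Csf1, Csf2, Csf3; 3.37% of all genes) and 1 lower (Csf2ra; 11.9%). Pericyte Csf2ra stood at 8.68 and 3.32 CPM, near T cells at 8.44 and 4.45.

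Fibroblasts and keratinocytes carried Csf3 at lower levels. In fibroblasts it was 0.641 CPM (10 UMIs) and 19.3 (620 UMIs), 30.2-fold [16.3–63.2], and the log2 ratio of 4.91 was 3.29 with predicted doublets kept. In keratinocytes it was 1.07 and 11.1 CPM, 10.4-fold [5.57–21.9], and its log2 ratio of 3.38 became 1.67 with every cell weighted equally. In TLR9agonist_LW basal keratinocytes held 25.8 CPM (200 UMIs) and suprabasal cells 1.57 (12 UMIs), while in WT_LW they had 4 and 2 UMIs, too few to order. The 15 keratinocytes of TLR9agonist_LW with at least 3 Csf3 UMIs held the matrix proteases Mmp9 at 442.5 CPM against 6.97 and Mmp13 at 1117 against 70.4. The endothelial gene Pecam1 was also higher in them, at 24.6 CPM against 5.48, and its part was not tested. Macrophages were at 8.59 and 25.7 CPM, 2.99-fold [2.27–3.97]. Neutrophils had 0 UMIs and 47, at least 3.54-fold above a floor of 3 UMIs, and the 19 positive cells held Krt14 at 5022 CPM against 775.2. T cells, taken as cells that should lack Csf3, stood at 1.25 and 4.98. This sets no limit for other gates, since free RNA may differ between gates. Col1a1, a fibroblast gene, was 1017 CPM in endothelial cells and 3239 in mast cells of TLR9agonist_LW. The fibroblast and keratinocyte Csf3 levels of TLR9agonist_LW lay above that of T cells, and those of WT_LW did not. The part of free RNA in them was not tested.

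Csf2, the granulocyte-macrophage factor, was highest in T cells of WT_LW. T cells stood at 44.5 CPM [40.9–48.3] there and at 98.4 [92.2–104.9] in TLR9agonist_LW, from 569 and 929 UMIs, a 2.21-fold difference [1.99–2.46]. Positive cells after thinning were 2.33% and 7.26%, while 0 of 895 thinned macrophages of WT_LW held Csf2, which allows a share of up to 0.335% of cells with a UMI at this depth and sets no limit on cells that express the gene. The size of the difference depended on which cells were called T cells: the log2 ratio of 1.15 was 0.42 with a stricter gate and 1.72 with whole T cell clusters. Ungated cells inside T cell clusters stood at 22.4 and 155.4 CPM, 6.93-fold [5.71–8.50]. Of 6 members measured in T cells, 2 were at least 2-fold higher (Csf2, Csf3; 3.77% of all genes) and 1 lower (Csf1r; 8.48%). T cell Csf3 was low, at 1.25 and 4.98 CPM. So was T cell Csf1r, at 8.36 and 3.07, against 521.5 and 395.4 in macrophages. The part of RNA from other cells in these 2 was not tested.

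The γδT17 and CD4 subsets of T cells had Csf2 ratios whose counting intervals did not overlap, though few cells held the UMIs. The γδT17 gate stood at 33.4 CPM in WT_LW and 115.8 in TLR9agonist_LW, 3.46-fold [2.41–5.12], whereas the CD4 gate stood at 91.6 and 92.8, for a log2 ratio of 0.02 [−0.24–0.28]. In the CD8 gate there were 28 and 3 UMIs. The regulatory gate held 1 UMI in WT_LW and 117 in TLR9agonist_LW, the latter in 15 cells, 1 of which held 31.6% of them. The 7 of these cells with at least 3 Csf2 UMIs went against the name of the gate, with Foxp3 in 14.3% against 58.7% of the others and Il17a at 12050 CPM against 2095. Cells with at least 3 Csf2 UMIs differed in company. In WT_LW, Cd4 was found in 84.1% of the 44 such cells against 48.9% of other T cells. The 44 cells were deeper, with a median of 6855 UMIs against 4376. In TLR9agonist_LW, Il17a stood at 7456 CPM in the 80 such cells against 3188, Il17f at 2446 against 873.9, and Cd4 was in 32.5% against 31.7%. Il17a is among the markers of the γδT17 gate. Among ungated cells of T cell clusters in TLR9agonist_LW, the 129 with at least 3 Csf2 UMIs held Il17a at 9661 against 5736 and Areg, an epidermal growth factor family member, at 7009 against 3830.

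Stromal and vascular cells of TLR9agonist_LW also held Csf2. Pericytes stood at 2.12 and 138.1 CPM (11 and 540 UMIs), 65.1-fold [36.1–131.2], but only 25 of 467 cells in TLR9agonist_LW were positive and 1 held 23.0% of the UMIs. The log2 ratio of 6.03 was 7.16 with every cell weighted equally. The 18 pericytes with at least 3 Csf2 UMIs also held Il17a at 1886 CPM against 58.5 and Cd3g, a T cell gene, at 129.1 against 28.0, while Ptprc was 4.96 against 16.7. The part of T cell RNA in this level was not tested. Fibroblasts stood at 6.47 and 28.8 CPM, 4.45-fold [3.62–5.52], with 1 cell holding 34.7% of the UMIs in WT_LW and 25.9% in TLR9agonist_LW. The 34 fibroblasts of TLR9agonist_LW with at least 3 Csf2 UMIs held Il1rl1, the interleukin-33 receptor, at 1117 CPM against 181.3, and Csf3 at 167.6 against 15.3. Deep wound fibroblasts stood at 4.54 and 21.7 CPM for Csf2, 4.77-fold [3.31–7.09]. Upper wound fibroblasts stood at 2.32 and 3.22, with an interval of the log2 ratio that spanned 0 [−0.68–1.81]. In WT_LW the deep gate held 34 and the upper gate 8 of the 101 fibroblast Csf2 UMIs. In TLR9agonist_LW they held 198 and 30 of 924. Most fibroblast Csf2 UMIs therefore lay in fibroblasts of neither gate in both libraries. Macrophages had 0 UMIs and 61 (9.78 CPM), at least 29.6-fold above a floor of 3 UMIs, with 47.5% of the 61 in 1 cell.

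Csf1, the macrophage factor, was higher in fibroblasts, endothelial cells, pericytes and Schwann cells of TLR9agonist_LW. Lymphatic endothelial cells, at 36.4 and 52.7 CPM, had an interval of the log2 ratio that spanned 0 [−0.25–1.34]. Fibroblasts stood at 58.3 CPM [54.6–62.3] in WT_LW and 139.3 [135.2–143.4] in TLR9agonist_LW, 2.39-fold [2.22–2.57], with 910 and 4468 UMIs. Their share of all Csf1 UMIs was 24.0% and 59.0%, and thinned positive cells were 6.63% and 15.6%. Upper wound fibroblasts (59.1 and 132.1) and deep wound fibroblasts (55.9 and 136.6) lay close together. Pericytes stood at 78.9 and 160.3 CPM, 2.03-fold [1.79–2.31], and Schwann cells, the glia of skin nerves, at 56.5 and 140.4, 2.49-fold [2.15–2.88]. In Schwann cells 1 of 5 measured members was at least 2-fold higher (Csf1; 2.25% of all genes) and 1 lower (Csf2rb; 3.61%). Schwann cell Csf2rb stood at 11.4 and 4.157 CPM, beside T cells at 11.02 and 9.85. Keratinocytes were low in both libraries, at 8.95 and 8.58. Of the 7 members measured in fibroblasts, 3 were at least 2-fold higher (Csf1, Csf2, Csf3), where 4.02% of all genes were, and 0 at least 2-fold lower, where 7.03% were.

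Several blood-derived gates went the other way for Csf1. Neutrophils stood at 1356 CPM [1163–1573] in WT_LW, from 175 UMIs in 47 cells, and at 68.2 [48.5–93.3] in TLR9agonist_LW, from 39 UMIs in 216 cells, for a log2 ratio of −4.31 [−4.85 to −3.81]. Thinned positive cells were 64.3% and 7.57%. In WT_LW, the 30 positive cells held the cytokine Tnf at 2343 CPM against 147.7 in the other 17, and the mature neutrophil gene Retnlg at 304.7 against 1861. Krt14 in this gate was 232.5 CPM in WT_LW and 1457 in TLR9agonist_LW, and its part in the difference was not tested. Mast cells stood at 243.3 and 57.2 CPM, for a log2 ratio of −2.09 [−2.53 to −1.66], with 25.6% of the WT_LW UMIs in 1 cell. The 50 positive mast cells of WT_LW held the chemokine Ccl4 at 7807 CPM against 990.4. They also held the basophil gene Mcpt8 at 382.4 against 60.5, and the mast cell protease Cma1 was found in 86.0% of them against 98.6%. Over the whole gate Mcpt8 was 161.8 CPM in WT_LW and 15.9 in TLR9agonist_LW, and its part in the difference was not tested. In T cells the log2 ratio was −0.85 [−1.05 to −0.66], and in the CD8 gate −2.34 [−3.09 to −1.66] (139.3 and 27.6 CPM, from 386 and 140 cells). The intervals spanned 0 in the CD4 gate, at 0.05 [−0.32–0.41], the regulatory gate, at −0.59 [−1.32–0.10], and the γδT17 gate, at −0.19 [−1.47–1.14]. The 88 Csf1-positive CD8 cells of WT_LW held the killing enzyme gene Gzmb at 858.4 CPM against 219.6. In TLR9agonist_LW the 13 such cells were not higher, at 382.8 against 488.2. Of 4 members measured in neutrophils, 1 was at least 2-fold lower (Csf1; 12.9% of all genes) and 0 higher (11.1%).

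The order of Csf1 levels differed in the same way. In WT_LW it ran from neutrophils to mast cells and then to pericytes, endothelial cells, T cells, fibroblasts and Schwann cells, neighbours whose intervals overlapped. In TLR9agonist_LW endothelial cells came first, followed by pericytes, Schwann cells and fibroblasts, and then neutrophils and mast cells. Macrophages, which carry the receptor, were low in Csf1 at 9.91 and 12.8 CPM, for a log2 ratio of 0.37 [−0.08–0.82] whose sign turned to −0.41 in whole macrophage clusters.

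Il34, the other ligand of Csf1r, was led by pericytes. They stood at 187.4 CPM [175.8–199.6] in WT_LW and 122.2 [111.5–133.7] in TLR9agonist_LW, for a log2 ratio of −0.62 [−0.78 to −0.46], and held 58.6% and 39.4% of all Il34 UMIs. Relative to the median gene of pericytes the log2 ratio was −0.26. Schwann cells followed at 35.4 and 39.0, then fibroblasts at 14.1 and 12.0, for a log2 ratio of −0.24 [−0.48–0.01]. In keratinocytes, Il34 was 10.4 CPM in WT_LW and 3.64 in TLR9agonist_LW, from 98 and 106 UMIs, for a log2 ratio of −1.52 [−1.93 to −1.11]. It was lower in suprabasal cells (11.7 and 3.92) and follicle cells (36.9 and 6.47, from 36 and 9 UMIs), while in basal cells (3.68 and 1.93) the interval of the ratio spanned 0. Macrophages, taken as cells that should lack it, stood at 0.771 and 1.12, which sets no limit for other gates. Of 7 members measured in keratinocytes, 2 were at least 2-fold higher (Csf2, Csf3; 2.60% of all genes) and 3 lower (Il34, Csf1r, Csf2ra; 16.9%). Keratinocyte Csf1r stood at 9.26 and 2.27 CPM, beside T cells at 8.36 and 3.07. Keratinocyte Csf2ra stood at 5.96 and 2.92, beside T cells at 8.44 and 4.45.

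**Figure D4:**
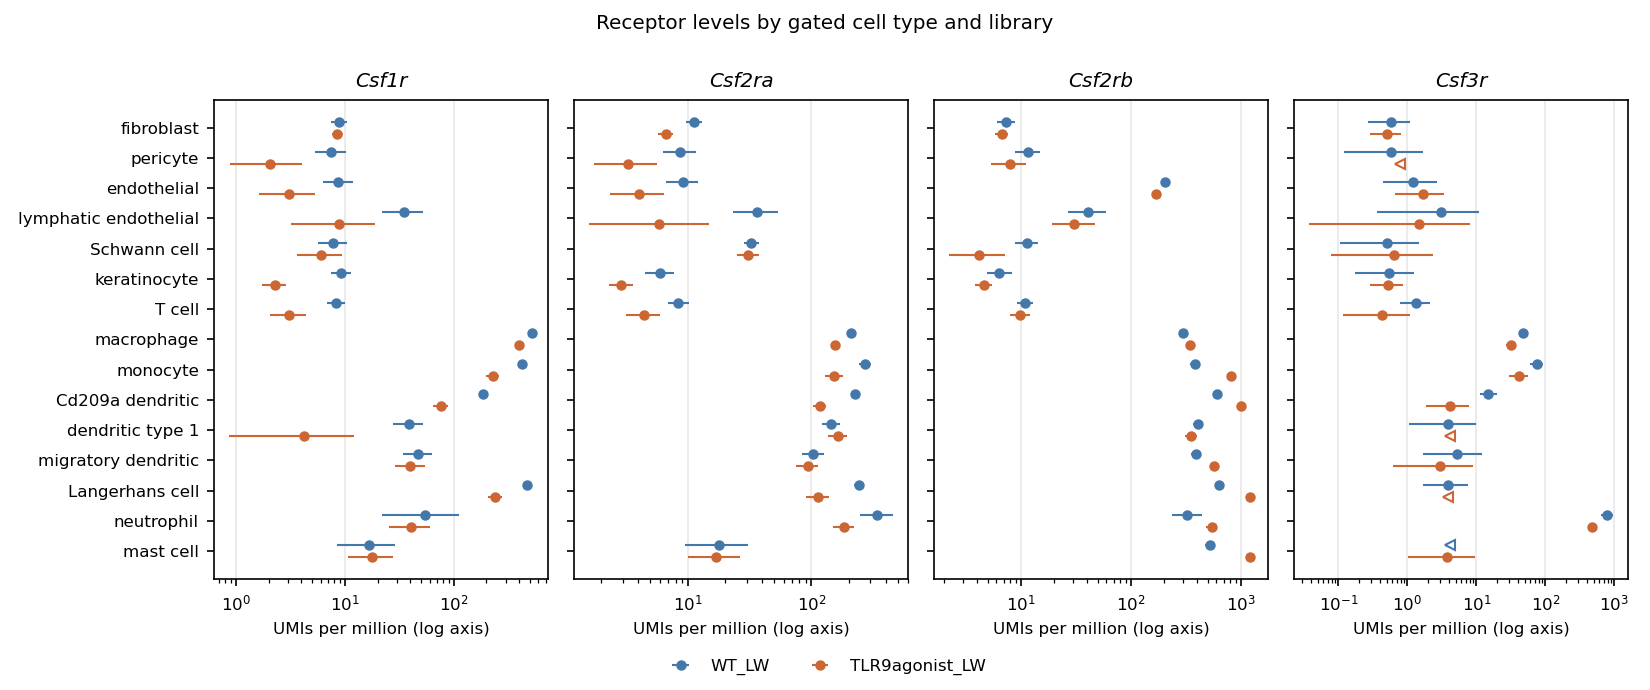
CPM (log axis) of Csf1r, Csf2ra, Csf2rb and Csf3r in 15 gated cell types, with 1 point per library and exact Poisson 95% intervals. Open triangles mark the floor of 3 UMIs where none was found. Csf1r was highest in macrophages (521.5 and 395.4), and Csf3r in neutrophils (790.4 and 472.3).

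Csf1r, the M-CSF receptor, was highest in macrophages in both libraries and lower there in TLR9agonist_LW. Macrophages held Csf1r at 521.5 CPM [506.8–536.6] in WT_LW and 395.4 [379.9–411.3] in TLR9agonist_LW, for a log2 ratio of −0.40 [−0.47 to −0.33]. Thinned positive cells were 54.0% and 40.9%, against 1.31% and 0.397% of T cells. Monocytes stood at 428.1 and 228.6, Langerhans cells at 473.9 and 241.3, and Cd209a dendritic cells at 185.0 and 75.7, for a log2 ratio of −1.29 [−1.54 to −1.04]. The median gene of macrophages had a log2 ratio of −0.18, and relative to it the macrophage Csf1r ratio was −0.22. Of 7 members measured in macrophages, 2 were at least 2-fold higher (Csf2, Csf3; 3.33% of all genes) and 0 lower (2.93%).

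Csf2ra, the GM-CSF-specific chain, differed by a like amount. Macrophages stood at 207.5 and 154.8 CPM, for a log2 ratio of −0.42 [−0.54 to −0.31], and monocytes at 272.0 and 152.4. Neutrophils had the highest level in both libraries, at 341.0 CPM [247.7–457.7] and 183.7 [150.2–222.3], with intervals that overlapped those of the next gate. Cd209a dendritic cells stood at 224.5 and 117.2, and Langerhans cells at 241.5 and 112.9, for a log2 ratio of −1.10 [−1.44 to −0.77]. The interval spanned 0 in type 1 dendritic cells, at 145.1 and 163.3 with a log2 ratio of 0.17 [−0.19–0.53], and in migratory dendritic cells, at 103.9 and 93.2 with −0.16 [−0.58–0.27]. Outside the myeloid gates, Schwann cells held 32.8 and 30.7 CPM, above T cells at 8.44 and 4.45. In Cd209a dendritic cells 0 of 4 measured members were at least 2-fold higher (3.41% of all genes) and 2 lower (Csf1r, Csf3r; 12.0%).

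Csf2rb, the shared β chain, was higher in mast cells, monocytes, neutrophils and most dendritic cells of TLR9agonist_LW. Mast cells stood at 519.9 and 1206 CPM (376 and 1286 UMIs), 2.32-fold [2.07–2.61], and thinned positive cells were 42.0% [33.8–50.5] and 73.1% [67.3–78.4]. In whole mast cell clusters the log2 ratio was 0.85 in place of 1.21, below 2-fold. Their close relative Csf2rb2, an interleukin-3 receptor chain, was 431.4 and 1390 in the same cells. None of the 90-base windows in the last 500 bases of Csf2rb transcripts occurred in Csf2rb2. Monocytes stood at 382.2 and 806.5, 2.11-fold [1.88–2.37], Cd209a dendritic cells at 601.3 and 1005, and Langerhans cells at 627.3 and 1213. Neutrophils stood at 325.5 [234.6–439.9] and 542.3 [483.6–606.1]. Type 1 dendritic cells, at 407.3 and 350.4, had an interval that spanned 0 [−0.45–0.01]. Endothelial cells held it at 202.8 and 168.5, for a log2 ratio of −0.27 [−0.41 to −0.13]. In mast cells Col1a1, a fibroblast gene, was 813.0 and 3239 CPM, and its part was not tested. Of 3 members measured in mast cells, 2 were at least 2-fold higher (Csf2, Csf2rb; 11.3% of all genes) and 1 lower (Csf1; 6.09%).

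In macrophages Csf2rb was found in a smaller share of cells in TLR9agonist_LW. Its level was 298.1 CPM [287.0–309.5] in WT_LW and 345.7 [331.2–360.6] in TLR9agonist_LW, for a log2 ratio of 0.21 [0.13–0.30], but −0.20 with every cell weighted equally. Macrophages without a Csf2rb UMI were 32.7% and 53.8%, and the cells with at least 10 UMIs were 7.03% and 8.36% and held 34.8% and 63.8% of the UMIs. These shares were not thinned. Macrophages were shallower in TLR9agonist_LW, with a median of 7545 UMIs against 9041 in WT_LW, which by itself leaves more cells without a UMI. The 119 macrophages of TLR9agonist_LW with at least 5 Csf2rb UMIs held Gpnmb at 1825 CPM against 193.3 in the other 647, Mmp12 (macrophage elastase) at 1800 against 207.1, and Inhba (activin A) at 1012 against 94.4. Their Csf1r was 263.5 against 442.7, and Mrc1, the mannose receptor, 257.4 against 1147. The dendritic cell gene Ccr7 was 124.5 against 17.2. In WT_LW the 203 such cells held Inhba at 265.8 against 77.7, Mmp12 at 754.4 against 346.2 and Mrc1 at 455.4 against 784.6, in the same direction, while Gpnmb was 202.9 against 158.5 and Csf1r 496.6 against 531.7. These genes were picked after their values were seen, and the cells with more Csf2rb were deeper, with a median of 11183 against 7108 UMIs in TLR9agonist_LW.

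Csf3r, the G-CSF receptor, was highest in neutrophils. They stood at 790.4 CPM [644.5–959.5] in WT_LW and 472.3 [417.6–532.1] in TLR9agonist_LW, from 102 and 270 UMIs, for a log2 ratio of −0.74 [−1.08 to −0.40]. Thinned positive cells were 61.9% and 54.1%, against 0.127% and 0.0567% of T cells. The neutrophils' share of all Csf3r UMIs was 11.8% and 41.0%, from 47 and 216 cells. Krt14 in this gate was 232.5 CPM in WT_LW and 1457 in TLR9agonist_LW, and its part in the Csf3r difference was not tested. Monocytes stood at 74.8 and 41.4 CPM and macrophages at 48.2 and 31.4, for a log2 ratio of −0.62 [−0.87 to −0.37]. All 3 gates were lower in TLR9agonist_LW.

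**Figure D5:**
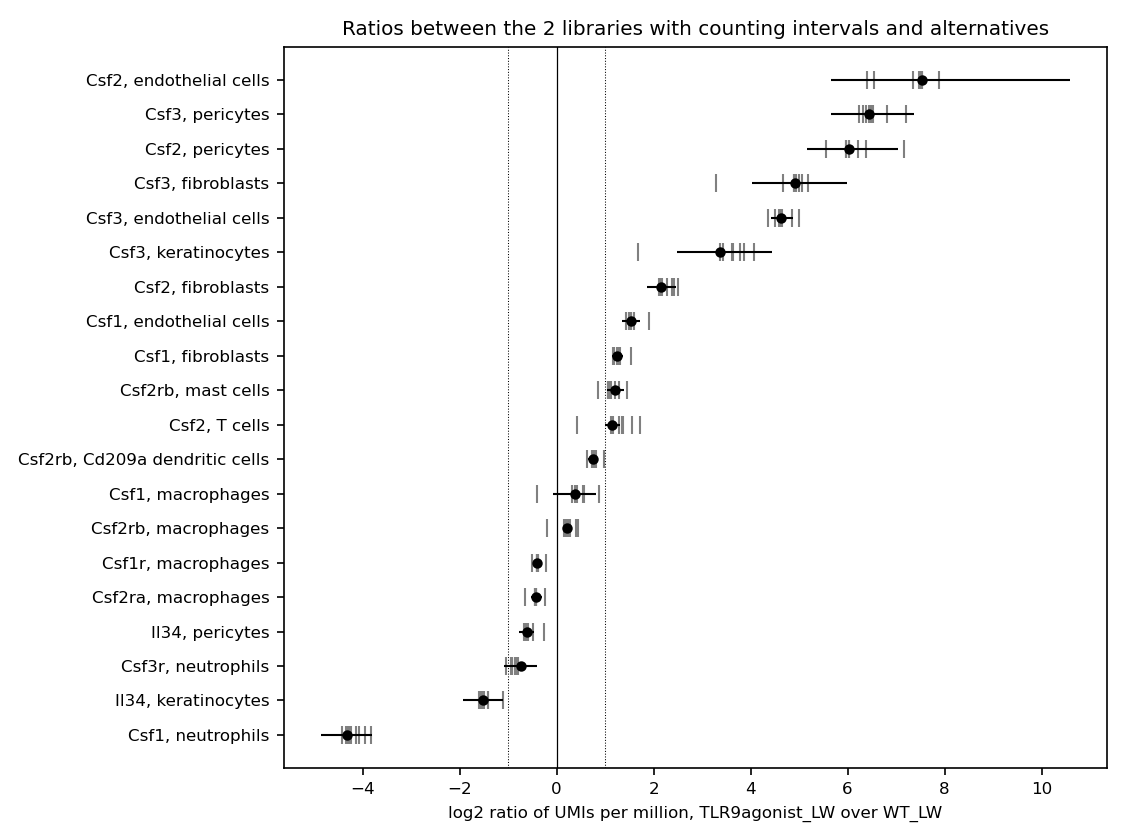
Log2 ratio of TLR9agonist_LW over WT_LW for 20 combinations of gene and cell type, as black points with exact 95% intervals; grey ticks are the values under other processing choices and dotted lines lie at −1 and 1. The endothelial Csf3 ratio was 4.64 and the neutrophil Csf1 ratio −4.31.

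Lists of genes around these receptors were counted in the same way. In macrophages, of the 9 genes of the Csf1r-signalling list, 1 was at least 2-fold higher, Maf, at 314.5 and 687.6 CPM, and 0 were lower, with a median log2 ratio of −0.06 beside −0.18 for all measured genes. Over all genes of macrophages, 3.33% were at least 2-fold higher and 2.93% lower, which is the background for the lists in this gate. Tyrobp stood at 1769 and 1366. Of 4 genes that GM-CSF is known to raise, 2 were at least 2-fold lower in macrophages: Arg1, arginase, with 705 and 8 UMIs (77.6 and 1.28 CPM), and the chemokine Ccl17 with 54 and 9 UMIs. Itgax stood at 96.7 and 61.9. Of 10 JAK-STAT genes in macrophages, 0 passed 2-fold in either direction. In endothelial cells 1 of the 10 was at least 2-fold higher (3.75% of all genes), Pim1, a kinase gene induced by STAT signalling, at 121.6 and 397.6. In T cells 1 of 10 was higher (3.77% of all genes), Stat3, at 214.2 and 448.4. In mast cells 2 of 10 were higher (11.3% of all genes), Jak2 at 95.4 and 303.8 and Stat3 at 70.5 and 215.7, and 1 was lower (6.09%), the feedback inhibitor Socs2, at 371.9 and 147.2. In neutrophils 1 of 5 measured was lower (12.9%), Jak2, at 209.2 and 87.5.

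Likeness across 30 points (15 cell types in 2 libraries, 13488 genes) was measured as Pearson's r of log2(CPM + 1). The points share libraries and depth, so r is a description with no p. Among receptors, Csf2rb was most like Csf2rb2 (0.95), Csf3r most like Tlr13 (0.94) and Csf1r most like Cfp (0.92). Among ligands, Il34 was most like Arhgef17 (0.93), Csf1 most like Gcc1 (0.84), Csf3 most like Gm21887 (0.77) and then Vcam1 (0.73), and Csf2 most like Gem (0.74), with Il17a at 0.72.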

How the data were processed

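Single-cell RNA was measured in 2 libraries, WT_LW and TLR9agonist_LW, 1 per group. The deposited values are unnormalized UMI counts for each gene in each cell, made by the authors with Cell Ranger (4.0.0 in the file headers). The submitters' processing notes also name fastp, Seurat and mm9 without their roles. The chemistry is given only as v2 or v3.

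The members and gene lists were chosen with earlier results of these data known. Cells needed 500 UMIs, 300 genes and no more than 15% mitochondrial UMIs, and the cells with the highest Scrublet scores were removed at 0.8% per 1000 cells. No annotation of cells was used here. A cell was gated with at least 3 markers of a type detected and a lead of 0.5 SD over the next family of types. Inside the myeloid, lymphoid and endothelial families a type had to lead by 0.25 SD only, and closer cells were set aside as mixed. The scoring was changed once after the first member levels had been seen, since most cells had stayed ungated. Leiden clusters (2000 variable genes, 30 components, 20 neighbours, resolution 1, seed 0) served as an alternative.

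UMIs were summed per gate and library, with exact Poisson, Clopper-Pearson and conditional binomial 95% intervals. A gene was measured in a gate with at least 50 UMIs, and counted as higher or lower at 2-fold. The 8 members were described in every gate, with the pathway lists and the genes most alike in pattern. Certain genes are not reported here. The endothelial, pericyte and mast cell results, Csf1 in neutrophils, Csf2 in fibroblasts, Csf2rb in Cd209a dendritic cells and the companion genes were chosen after values were seen. Alternatives changed the cell filter, doublets, gates, clusters, weight of cells, scaling and shared barcodes. The scripts were tested on simulated data. Tools were scanpy 1.11.5, leidenalg 0.10.2, pandas 2.3.3, scipy 1.17.1, numpy 2.4.6 and matplotlib 3.10.9 in Python 3.11.15.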

Additional observations from a re-analysis of the deposited data

Results flagged for a closer look

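Csf1 went opposite ways in endothelial cells, with a log2 ratio of TLR9agonist_LW over WT_LW of 1.54, and in neutrophils, with −4.31, a gap of 5.85 on the log2 scale. Csf2rb went opposite ways in mast cells, at 1.21, and in Schwann cells, at −1.46 from 67 and 13 UMIs, a gap of 2.67. The Schwann cell level was low, at 11.4 CPM in WT_LW and 4.157 in TLR9agonist_LW, beside T cells at 11.02 and 9.85. The part of RNA from other cells in it was not tested. Each contrast rests on 1 library per group, and neither difference was tested.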

How the results depend on the processing

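No paired analysis was possible because each group had 1 library. Of 167 alternative values for 22 results, 139 lay within the counting interval of the reported value or within 1.5 times a reported count, 28 lay outside, and 2 had another sign. With every cell weighted equally, the log2 ratio in macrophages was −0.65 for Csf2ra, −0.20 for Csf2rb and 0.87 for Csf1, that of Csf2 in T cells was 1.56 and that of Csf3 in keratinocytes 1.67. In whole clusters, macrophage values were −0.51 for Csf1r, 0.44 for Csf2rb and −0.41 for Csf1, and the T cell value of Csf2 was 1.72. Relative to the median gene, macrophage values were −0.22 for Csf1r, −0.24 for Csf2ra and 0.40 for Csf2rb, with 1.52 for Csf1 in fibroblasts and 1.38 for Csf2 in T cells. Csf2 in T cells was 0.42 with a stricter and 1.35 with a looser gate. Csf3 in fibroblasts was 3.29 with predicted doublets kept. The share of macrophage genes past 2-fold was 6.26% at 50 UMIs and 3.83% at 200 UMIs. Results for endothelial cells, pericytes and mast cells, Csf1 in neutrophils, Csf2 in fibroblasts, Csf2rb in Cd209a dendritic cells, and the values without the highest cell were added after seeing the data. Levels of 1 to 10 UMIs are limited by depth. The cause of these shifts was not tested.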

Other observations

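Interleukin-5, which signals through Csf2rb, was measured in T cells at 1.25 CPM in WT_LW (16 UMIs) and 6.78 in TLR9agonist_LW (64 UMIs). Sdc1, which encodes a syndecan that can bind interleukin-34, was 179.5 and 434.9 CPM in pericytes, the gate that led for Il34. It was the 1 measured gene there of a list of 2 other interleukin-34 receptors, and 3.37% of all pericyte genes were at least 2-fold higher. In fibroblasts 0 of 2 were higher and 1 lower (7.03% of all genes). In T cells 1 was higher (3.77%) and 1 lower (8.48%), and in Cd209a dendritic cells 1 of 1 was higher (3.41%). In the other gates counted, no gene of the list passed 2-fold.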
